A study of Mus musculus with 11 samples.

Results

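The regions described here are places near gene starts where the transcription factor PU.1 was listed in mouse B cells after 1 day of stimulation and had no counterpart in the list of day 3. They were selected on the PU.1 peak lists themselves: a region of the day 1 list was taken when no peak position of the day 3 list lay less than 200 bp away and when it lay within 1 kb of an annotated transcript start of a protein-coding gene. This gave 804 regions of the 21966 in the day 1 list. Every annotated transcript of such a gene counted as a start: 695 of the 804 lay within 1 kb of the start of a transcript that is itself typed protein-coding, and 567 within 1 kb of the outermost start of a gene. They made up 22.8% of the 3526 day 1 regions within 1 kb of a start, and the other 2722, which kept a day 3 counterpart, are called stable promoter regions here. Over the whole day 1 list 35.7% of the regions had no day 3 counterpart, and 7030 such regions lay over 1 kb from a start.

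The study used chromatin immunoprecipitation with sequencing (ChIP-seq), in which an antibody pulls down a protein with its DNA, and stretches with an excess of sequenced DNA over input are listed as peaks. It asked how the binding of PU.1 and IRF4 differs between activated B cells and the plasma cells that they form. The day 3 group held 2 PU.1 libraries and 3 IRF4 libraries of cells stimulated for 3 days, and the day 1 group held 2 PU.1 libraries and 3 IRF4 libraries of cells stimulated for 1 day. Both groups were primary splenic B cells of B1-8i mice on the 129 background, which carry a gene-targeted antibody against the hapten NP, and both were cultured with the antigen NP-Ficoll (0.01 ng/mL), CD40L and 3 interleukins (IL-2, IL-4, IL-5). No unstimulated cells were analysed here, so day 1 is not a resting state, and the labels do not say which share of the day 3 culture had become plasma cells. Peak lists hold no RNA level, so the labelled cell type could not be checked against marker expression.

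PU.1, the product of Spi1, is an Ets family factor that binds purine-rich DNA around a GGAA core. It is needed early in the B cell and myeloid lineages, stays present in mature B cells and is lowered as B cells become plasma cells. In B cells it recruits IRF4 to Ets-IRF composite elements (EICE), DNA in which an Ets site and an IRF site lie side by side.

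The sequences below are the 100 bp around the peak position at 6 of the regions, from the mm9 (NCBIM37) reference, plus strand, 5′ to 3′. Mfsd4 and Slk stand for the regions with the highest day 1 enrichment, Tomm5 and Slc2a9 for the highest among those found in no day 3 library, and Atp6v0a1 and Pkn3 for those with IRF4 in the most libraries. Capitals mark matches, on either strand, to a PU.1 site (GAGGAAGT), the purine-rich Ets core (AGGAAG), the class I Ets site (CCGGAAG), the EICE (GGAANNGAAA), the interferon-stimulated response element (ISRE, GAAANNGAAA) or the AP-1 site (TGANTCA).
Mfsd4, chr1:133951098-133951197: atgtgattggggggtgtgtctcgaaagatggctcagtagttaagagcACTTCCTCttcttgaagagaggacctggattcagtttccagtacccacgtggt
Slk, chr19:47696161-47696260: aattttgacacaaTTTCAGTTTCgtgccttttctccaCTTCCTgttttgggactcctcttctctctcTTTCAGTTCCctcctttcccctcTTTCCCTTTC
Tomm5, chr4:45121426-45121525: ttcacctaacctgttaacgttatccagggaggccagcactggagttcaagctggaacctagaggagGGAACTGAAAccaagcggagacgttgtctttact
Slc2a9, chr5:38874935-38875034: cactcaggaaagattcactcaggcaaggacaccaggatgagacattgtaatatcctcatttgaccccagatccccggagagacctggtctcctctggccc
Atp6v0a1, chr11:100870095-100870194: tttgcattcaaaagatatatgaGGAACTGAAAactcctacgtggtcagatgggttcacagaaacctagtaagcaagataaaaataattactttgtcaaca
Pkn3, chr2:29939794-29939893: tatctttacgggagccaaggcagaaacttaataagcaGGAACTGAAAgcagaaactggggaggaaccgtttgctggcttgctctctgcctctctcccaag
The Mfsd4 window held the PU.1 site itself, read on the minus strand. Slk held an EICE, 2 ISRE matches and the purine-rich core, and the same 10 bases, GGAACTGAAA, formed the EICE in Tomm5, Atp6v0a1 and Pkn3 and, on the minus strand, in Slk. The 100 bp at Slc2a9 held none of these patterns, although its 200 bp window held a PU.1 site.

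One PU.1 library stood apart, and the choice of the regions passes through it. The authors' group list for each day was found to hold only lines of replicate 1 of that day. Of the 2722 stable regions 2716 had a peak in both day 3 libraries and 6 in replicate 1 only, so a region missing from either day 3 library usually had no counterpart in the day 3 list. Of the 3270 PU.1 regions with at least 100-fold enrichment in the other 3 libraries, day 3 replicate 1 lacked 544 (16.6%). The same count was 10 of 2667 (0.375%) for day 3 replicate 2, 43 of 3339 (1.29%) for day 1 replicate 1 and 38 of 2830 (1.34%) for day 1 replicate 2. Near gene starts the gap was narrower: day 3 replicate 1 lacked 29 of 405 such regions (7.16%) and day 3 replicate 2 lacked 0 of 378, while day 1 replicate 1 lacked 11 of 572 (1.92%) and day 1 replicate 2 lacked 9 of 398 (2.26%). Only 22 of the 544 overlapped an interval listed in that library at all. It is also the single PU.1 library whose title carries a pair of numbers, and its part in the results was not tested except where values without it are given.

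Most of the day 1-only promoter regions were called on day 3 in a library. A single day 3 PU.1 library held a peak less than 200 bp away at 657 of the 804 regions, or 81.7% (Wilson 95% interval 78.9 to 84.2%). Of the 804 regions, 382 (47.5%) were in day 3 replicate 2 only and 275 (34.2%) in day 3 replicate 1 only. Both day 3 libraries held a peak at 6 regions (0.746%), and neither did at 141 (17.5%, 15.1 to 20.3%). Among all 7834 day 1-only regions of the genome, 82.2% were in a single day 3 library and 17.6% in neither, so the total near gene starts lay at the background. The division between the libraries was another: of the day 1-only regions over 1 kb from a start, 66.5% were in replicate 2 only and 15.7% in replicate 1 only. All 804 regions were called in both day 1 libraries. These counts describe the calls that chose the regions and carry no test.

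The opposite direction was counted near gene starts only, so no share over all day 3 regions stands beside these counts. Within 1 kb of a start lay 21.5% of the day 3 list and 16.1% of the day 1 list. Of the 4593 day 3 regions within 1 kb of a start, 1871 (40.7%) had no counterpart in the day 1 list. A single day 1 library held a peak at 1314 of them (70.2%), both at 4 and neither at 553 (29.6%).

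Enrichment here is the authors' fold over input DNA, which describes peaks within 1 list and is set side by side across libraries without a comparison of levels. In the day 1 list the regions ran from 15-fold to 381-fold with a median of 22.7-fold (quartiles 18.2 and 33.6), and 283 of them (35.2%) were under 20-fold, close to the lowest value that the lists hold. The stable promoter regions had a median of 37.1-fold (24.2 and 66), with 13.3% under 20-fold. Where day 3 libraries called the regions, the median was 34.6-fold in day 3 replicate 1 (281 regions) and 34.1-fold in day 3 replicate 2 (388 regions); day 1 medians were 22.7-fold in replicate 1 and 31.3-fold in replicate 2. Day 1-only regions thus included peaks well above the lowest listed value in the day 3 library that called them.

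All day 1 promoter regions were also ordered by enrichment and divided into 5 bins of equal size. The share that was day 1-only was 42.9% in the weakest bin (15-fold to 20.6-fold, 303 of 706 regions), then 31.1%, 19.6% and 12.2%, and 8.23% in the strongest (69.4-fold to 1340-fold, 58 of 705). Regions in neither day 3 library numbered 84, 34, 16, 6 and 1 over these bins. Regions in day 3 replicate 1 only numbered 129, 81, 36, 27 and 2, and those in day 3 replicate 2 only 89, 102, 83, 53 and 55. The weak end therefore held most of the regions that no day 3 library called, and the strong end held regions called in day 3 replicate 2. Of the 33 regions of at least 100-fold, 31 were in day 3 replicate 2 only, 1 in day 3 replicate 1 only and 1 in neither.

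**Figure D1:**
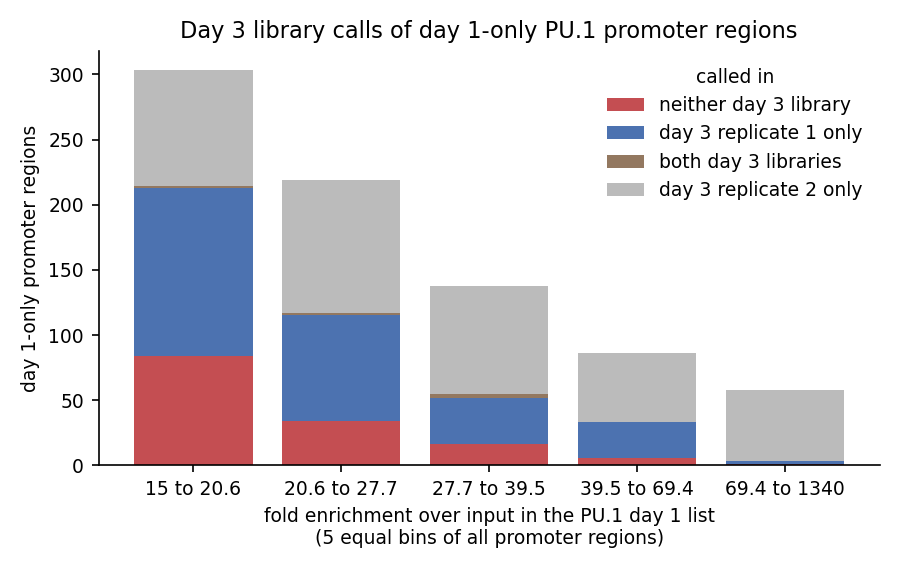
Number of day 1-only PU.1 promoter regions (vertical axis) in 5 equal bins of day 1 promoter regions by fold enrichment over input (horizontal axis), with colours for the day 3 PU.1 libraries that called them. The weakest bin held 84 of the 141 regions in neither library, and 55 of the 58 regions in the strongest bin were in day 3 replicate 2 only.

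The 10 strongest regions lay near genes of unlike functions. All 10 were called in day 3 replicate 2 and none in day 3 replicate 1. The strongest lay at Mfsd4, a member of the major facilitator family of membrane transporters (chr1:133950971-133951319, intron, 394 bp upstream of the nearest transcript start). It was not called in day 3 replicate 1 and had 502-fold enrichment in day 3 replicate 2, against 381-fold in day 1 replicate 1 and 449-fold in day 1 replicate 2. The nearest peak of day 3 replicate 1 lay 6013 bp away. Slk, a STE20-like kinase (chr19:47696013-47696433, intron, 937 bp upstream of an annotated start), was not called in day 3 replicate 1 and had 545-fold in day 3 replicate 2, against 322-fold and 655-fold in day 1 replicates 1 and 2. At both places 3 libraries of the 4 called a strong peak and the remaining one called none.

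Among the others, Polm encodes DNA polymerase mu, which fills in ends during V(D)J joining, and its region lay in an exon 412 bp downstream of the start. It had 335-fold in day 3 replicate 2, against 207-fold and 346-fold in day 1 replicates 1 and 2. Cyp27a1, the mitochondrial sterol 27-hydroxylase, had 278-fold in day 3 replicate 2, against 241-fold and 276-fold on day 1. Cdc42, a small GTPase of the actin cytoskeleton, had 186-fold in day 3 replicate 2, against 183-fold and 164-fold on day 1. The remaining 5 were Chst3, a chondroitin sulfotransferase, Senp6, a SUMO protease, Coro2b, an actin-binding coronin, Churc1 and Cdkl4, with 197-fold to 296-fold in day 3 replicate 2, against 155-fold to 275-fold in the day 1 libraries. At Cyp27a1, Polm, Coro2b, Churc1 and Cdc42 day 3 replicate 1 did list another peak 424 to 719 bp away.

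The 141 regions in neither day 3 library are those for which the day 1-only call does not depend on which day 3 library is read. Their median day 1 enrichment was 19.6-fold. The strongest by far lay 490 bp upstream of Tomm5, which encodes a small subunit of the translocase of the mitochondrial outer membrane (chr4:45121303-45121764, intergenic). It was called in no day 3 library, against 166-fold in day 1 replicate 1 and 259-fold in day 1 replicate 2, and the nearest day 3 peaks lay 40696 bp away in replicate 1 and 40715 bp away in replicate 2. It was also the region whose EICE is printed above. No IRF4 library held a peak there.

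The next was Slc2a9, a urate and hexose transporter (chr5:38874779-38875127, intron), which no day 3 library called, against 51.7-fold in day 1 replicate 1 and 83.5-fold in day 1 replicate 2. Smarcd2, a subunit of the BAF chromatin remodelling complex, was likewise not called on day 3, against 45-fold and 36.6-fold in day 1 replicates 1 and 2. Coro1a, a coronin of leukocytes, was also not called on day 3 and had 41-fold and 37.7-fold in day 1 replicates 1 and 2, at a position 10 bp from its start. A further 5, at Fam151b, Gm5577 (beside H1fx), Hspa1a, 6430550D23Rik (beside Ergic3) and Plin3, lay between 29.6-fold and 59.5-fold in the day 1 libraries. None of these regions, from Tomm5 to Plin3, had an IRF4 peak in any library. The call at Plin3, a lipid droplet protein, rests on the distance rule: day 3 peaks lay 232 bp away in replicate 1 and 222 bp away in replicate 2.

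**Figure D2:**
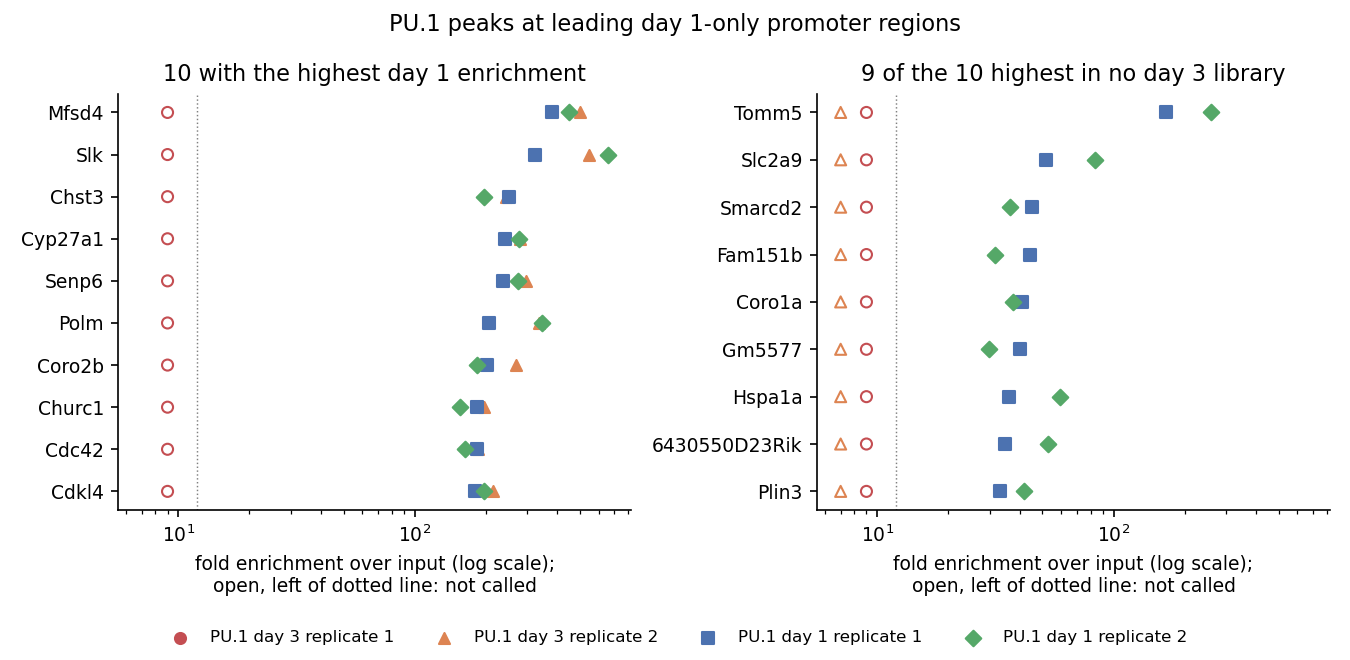
Fold enrichment over input (horizontal log axis) in the 4 PU.1 libraries at the 10 day 1-only promoter regions with the highest day 1 enrichment (left) and at 9 of the 10 highest among those in no day 3 library (right), with open symbols for libraries that did not call the region. On the left all day 3 replicate 2 peaks lie at 186-fold or above while day 3 replicate 1 has none, and on the right Tomm5, with 166-fold and 259-fold on day 1, stands above the others.

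Near the 200 bp limit, the regions just outside it lay at Ppp1r12c, Ints6 and 1110008F13Rik, 206, 209 and 213 bp from the nearest day 3 group position. The regions just inside it, which count as stable, lay at Rps3a (198 bp), Dek (195 bp) and Mocs1 (195 bp). Few regions were near the limit: 7 had a day 3 group position under 250 bp away and 31 (3.86%) under 500 bp. A day 3 position lay under 1000 bp away for 134 regions (16.7%) and under 10000 bp away for 435 (54.1%).

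Counted by gene, 844 of 22380 protein-coding genes (3.77%) had a day 1-only region within 1 kb of a start, while 2748 (12.3%) had a stable one. A day 3 group position within 1 kb of a start remained at 272 of the 844 genes (32.2%), and 572 (67.8%) had none. This count reads the day 3 group list alone and has no share over other genes beside it. It does not mean that PU.1 was missing there on day 3, since 82.5% of the regions had a peak in at least 1 day 3 library. A stable region lay at 166 of the 844 as well. These are rules of distance and do not show that a region acts on the gene, and 68 regions lay at 2 or more genes.

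Among gene lists chosen for B cells and their common functions, that of NF-kB and activation held the most day 1-only regions, at 4 of its 20 genes, beside 11 genes with a stable region. Over all protein-coding genes 3.77% had a day 1-only region and 12.3% a stable one. Of the 3426 genes with any PU.1 day 1 region within 1 kb of a start, 844 had a day 1-only region. No list was tested against these shares. Cd40, the receptor for the CD40L added to the culture, was not called in day 3 replicate 1 and had 148-fold in day 3 replicate 2, against 158-fold and 124-fold in day 1 replicates 1 and 2. Rel, the NF-kB subunit c-Rel, had 72.5-fold in day 3 replicate 1 and no call in day 3 replicate 2, against 49.3-fold and 63.8-fold on day 1. Cd40 and Rel thus show both ways of missing 1 day 3 library. Nfkbie, an NF-kB inhibitor, had 23.5-fold in day 3 replicate 2 alone, against 26.9-fold and 41.8-fold on day 1. Traf3, an adaptor that restrains CD40 signalling, was in neither day 3 library, against 21.4-fold and 26.6-fold on day 1, and its window held a PU.1 site.

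The list of B cell receptor and identity genes had 2 of 20 genes with a day 1-only region and 13 with a stable one. These were Vpreb3, a chaperone of immunoglobulin chains, with 62-fold in day 3 replicate 2, against 48.1-fold and 55.3-fold on day 1, and Lyn, a Src family kinase of the receptor, with 29.5-fold in day 3 replicate 2, against 20.7-fold and 28.2-fold on day 1. Of the antigen presentation genes 1 of 18 had a day 1-only region and 8 a stable one. It was Ciita, the master regulator of MHC class II genes, in neither day 3 library, against 15.9-fold and 21-fold on day 1. Ciita lay close to the lowest listed enrichment.

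Germinal centre and plasma cell regulators had 1 of 20, Pou2f2, the octamer-binding factor Oct2, with 72.1-fold in day 3 replicate 2, against 50.7-fold and 83.8-fold on day 1, and 5 genes had a stable region. Interferon-stimulated genes had 1 of 23, Irf1, in neither day 3 library, against 22-fold and 18.6-fold on day 1, and 7 had a stable region. Of the myeloid markers 2 of 20 had a day 1-only region and 2 a stable one. Fcgr1, the high-affinity IgG receptor, had 107-fold in day 3 replicate 2, against 101-fold and 102-fold on day 1, and S100a8, a calcium-binding protein of neutrophils, was in neither day 3 library, against 20.9-fold and 23.6-fold on day 1. None of 20 T and NK cell markers and none of 20 neuron and liver genes had a day 1-only region, and 2 and 1 of them had a stable one.

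In the lists of common cell functions the share of genes with a day 1-only region ran from 3.33% to 10%, beside 3.77% of all protein-coding genes. The count was 3 of 30 for mRNA splicing and processing (Ddx5, U2af2 and Prpf31; 14 stable), 2 of 30 for DNA replication and cell cycle (Cdc6 and Rfc1; 8 stable), 2 of 30 for the respiratory chain and ATP synthase (Ndufa9 among them; 6 stable) and 2 of 30 for the proteasome (Psmc1 and Psmb3; 7 stable). It was 1 of 30 each for ribosome biogenesis (Nop56; 6 stable), mitochondrial ribosomal proteins (Mrpl1; 3 stable) and chromatin regulators (Dnmt3a; 8 stable). It was 1 of 25 each for autophagy and lysosome (Gabarap; 9 stable) and the unfolded protein response (Pdia3; 5 stable), and 1 of 20 for aminoacyl-tRNA synthetases (Farsb; 3 stable). Ddx5, an RNA helicase, had 111-fold in day 3 replicate 1 and no call in day 3 replicate 2, against 47.4-fold and 53.9-fold on day 1. The region at Prpf31 lay nearest to Tfpt and that at Pdia3 nearest to Catsper2. Of the 26 genes of all lists with a day 1-only region, Traf3, Irf1, Ciita, S100a8, Rfc1, U2af2 and Gabarap were in neither day 3 library.

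Day 1-only promoter regions lay farther from gene starts than stable ones, a feature the selection did not use directly beyond the limit of 1 kb. The selection passed through day 3 replicate 1, which had 23.7% of its peaks within 1 kb of a start. That share was 17.3% in day 3 replicate 2, and 15.8% and 17.2% in day 1 replicates 1 and 2. Day 1-only regions also had lower day 1 enrichment than stable ones (median 22.7-fold, against 37.1-fold). The part of day 3 replicate 1 or of enrichment in the distances, and in the CpG content given next, was not tested. The median distance to the nearest start was 346 bp (quartiles 100 and 621), against 158 bp (44 and 504) for stable regions. Within 100 bp of a start lay 25.4% of the day 1-only regions and 40% of the stable ones, a difference of -14.6 percentage points (Newcombe 95% interval over regions, -18.1 to -11). Over 500 bp away lay 34.6%, against 25.2% of stable regions (9.38 points, 5.76 to 13.1). The share upstream of the nearest start was 60.4%, against 61.6% (-1.16 points, -5.03 to 2.64). Introns held 42.3%, against 35.1% (7.17 points, 3.34 to 11). Regions are places in the same libraries and not replicates, so these intervals cover counting error over regions only.

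**Figure D3:**
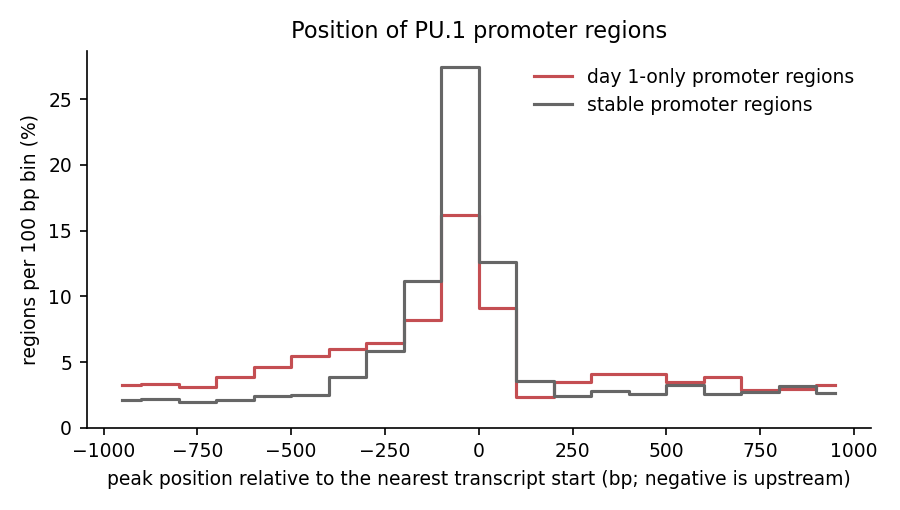
Share of regions per 100 bp bin (vertical axis) by the distance of the peak position from the nearest transcript start (horizontal axis, negative upstream), for day 1-only and stable PU.1 promoter regions. The bin just upstream of the start held 16.2% of the day 1-only regions and 27.4% of the stable ones.

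The DNA of the regions was less rich in CpG. Median GC content of the 200 bp around the peak position was 51%, against 53.5% for stable regions and 59% for windows at all gene starts. CpG-rich windows, with GC over 55% and an observed over expected CpG ratio over 0.65, made up 14.3% of day 1-only regions and 27.8% of stable ones (-13.5 points, -16.4 to -10.5), and 0.242% of the day 1-only regions over 1 kb from a start. The difference was present both near the start and farther away: within 250 bp of a start the shares were 28.5% and 40.5% (-12 points, -17.2 to -6.3), and beyond that 4.78% and 9.75% (-4.97 points, -7.42 to -2.17).

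Over all regions, the interval of the difference between day 1-only and stable regions included 0 for the core PU.1 sequences. Of 14 patterns searched on both strands of the 200 bp windows, the PU.1 site GAGGAAGT was in 19.3% of the day 1-only windows and 21.5% of the stable ones (-2.21 points, -5.24 to 1.03), with 2.27% at all gene starts. The purine-rich core AGGAAG, which the PU.1 site contains, was in 58.8% and 58.4% (0.455 points, -3.44 to 4.29), with 25.6% at all gene starts. The PU.1 site read backwards without complementing, TGAAGGAG, a control with the same bases, was in 1.37% and 1.54%, with 1.47% at all gene starts. Because the groups differed in enrichment, the shares were also taken within 3 bins of equal size of all day 1 promoter regions. In the weakest bin (15-fold to 24.9-fold), which held 463 of the 804 regions, the purine-rich core was in 58.1% of day 1-only and 51% of stable windows (7.12 points, 1.28 to 12.9). In the middle bin that difference was 1.49 points (-5.55 to 8.28) and in the strongest -4.12 points (-14.2 to 5.4). The PU.1 site differed by 3.42 points (-0.644 to 7.69) in the weakest bin, 5.08 points (-0.354 to 11.2) in the middle and -4.63 points (-12.7 to 5.06) in the strongest. The sign of the PU.1 site difference over all regions was thus not that of the weaker bins, where most of the day 1-only regions lay. Both groups of PU.1 regions held the site in a larger share of windows than gene starts do, and the control did not.

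Over all regions, the SP1 and class I Ets sites, patterns of CpG-rich promoters, were in smaller shares of day 1-only than of stable windows. The SP1 site GGGCGG was in 18.7% of day 1-only windows and 28.3% of stable ones (-9.63 points, -12.7 to -6.34; 39.9% of gene starts). The class I Ets site CCGGAAG, bound by other Ets factors such as GABPA, was in 6.84% and 11.5% (-4.62 points, -6.61 to -2.35; 9.37% of gene starts). Within the same 3 bins of enrichment the class I Ets difference was -6.75, -7.82 and -5.12 points, weakest bin first. With the day 3 list taken from replicate 2 alone, the class I Ets difference was -1.06 points (-3.75 to 2.28), and from replicate 1 alone -6.38 points (-8.34 to -3.92). Within 250 bp of a start it was -2.72 points (-6.65 to 1.9) and farther away -1.47 points (-2.91 to 0.34), both with 0 inside the interval. The SP1 difference was -8.56 points (-13.9 to -2.84) within 250 bp and -2.49 points (-5.77 to 1.15) farther away. It was not taken within the bins of enrichment or with the day 3 list of a single library.

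Of the other patterns, the TATA box TATAAA was in 7.46% of day 1-only and 5.22% of stable windows (2.25 points, 0.392 to 4.41; 8.19% of gene starts), and the NRF1 site was in 0.249% and 1.43% (1.69% of gene starts). Within 250 bp of a start the TATA difference was 0.777 points (-1.4 to 3.84). Farther away it was 2.44 points (-0.343 to 5.64), and both intervals included 0. The EICE was in 7.21% and 9.44% (-2.23 points, -4.2 to 0.0267; 1.55% of gene starts). The ISRE was in 5.22% and 5.14% (2.07% of gene starts), the AP-1 site in 6.84% and 5.36% (1.48 points, -0.319 to 3.59; 4.13% of gene starts) and the NFY box CCAAT in 23.5% and 23.4% (27.3% of gene starts). The interval of the difference lay clear of 0 for 4 of the 14 patterns, namely class I Ets, NRF1, SP1 and TATA, with no adjustment for their number. In the 141 regions of neither day 3 library, the EICE was in 3.55% (-5.9 points from stable regions, -8.22 to -1.29) and SP1 in 16.3% (-12 points, -17.4 to -4.8), but the backwards control was in 4.26% (2.71 points, 0.36 to 7.45), so an interval clear of 0 also came up for a pattern with no known factor. These 141 regions were weaker than stable ones (median 19.6-fold, against 37.1-fold). Their EICE share differed from that of regions in a single day 3 library by -4.22 points (-7.28 to 0.621). Within the 3 bins of enrichment, weakest first, the EICE difference between all day 1-only and stable regions was 0.224, -2.14 and 2.98 points. Each of these intervals included 0.

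Set against the 7030 day 1-only regions over 1 kb from a start, those near starts held fewer PU.1 sites (19.3%, against 27.7%; -8.43 points, -11.2 to -5.38) and fewer EICEs (7.21%, against 13.5%; -6.24 points, -8.03 to -4.1). They held more class I Ets sites (6.84%, against 1.52%; 5.32 points, 3.74 to 7.29).

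**Figure D4:**
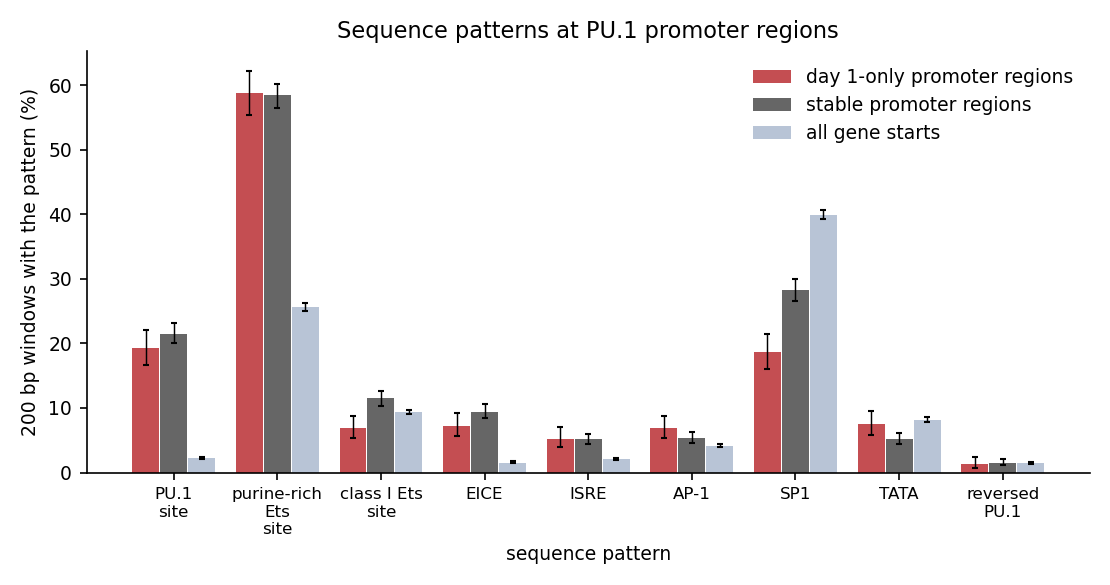
Share of 200 bp windows with each sequence pattern (vertical axis, with Wilson 95% intervals) in day 1-only promoter regions, stable promoter regions and windows at all gene starts. The PU.1 site was in 19.3% of day 1-only and 21.5% of stable windows, while SP1 was in 18.7% and 28.3%.

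IRF4, which the selection did not use, was listed at few of the day 1-only promoter regions, at shares that overlapped between the days. The 3 day 3 libraries held an IRF4 peak less than 200 bp away at 20, 9 and 51 of the 804 regions (2.49%, 1.12% and 6.34%), and the 3 day 1 libraries at 4, 41 and 36 (0.498%, 5.1% and 4.48%). The lists behind these shares held 2784, 1408 and 5595 IRF4 peaks on day 3, and 825, 9326 and 8929 on day 1. The libraries with the fewest peaks overall were those with the fewest here. Day 3 replicate 3 had the most, 51, although its list was shorter than those of day 1 replicates 2 and 3. The mean share was 3.32% ± 2.71 on day 3 and 3.36% ± 2.5 on day 1 (SD, n = 3 each), a difference of -0.0415 points (exact permutation test, two-sided, p = 1; the smallest p that 3 against 3 can give is 0.1). These shares were not corrected for the size of the lists. With the 825 top peaks of each IRF4 library the difference was 0.373 points (exact permutation p = 0.2). The sign of the difference also changed with other processing choices, given with the alternatives below.

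The share with IRF4 was lower at day 1-only than at stable regions in every IRF4 library, a difference that did not pass adjustment. The stable regions had IRF4 at 6.06%, 3.49% and 10.2% in the day 3 libraries and 1.8%, 10.2% and 8.38% in the day 1 libraries, so day 1-only regions were lower in 6 of 6, with a mean difference of -3.37 points. The exact two-sided sign-flip permutation test over the 6 libraries gave p = 0.031, the smallest it can give, and 0.125 after Benjamini-Hochberg adjustment over the 4 IRF4 tests, which does not pass 0.05. With the 825 top peaks of each IRF4 library the mean difference was -1.15 points, lower in size but of the same sign. Day 1-only regions also had lower PU.1 enrichment and lay farther from starts than stable ones, and the part of either in this difference was not tested. The difference between day 1-only and stable regions was -3.28 ± 0.808 points on day 3 and -3.45 ± 1.96 points on day 1 (exact permutation p = 0.9). For stable regions alone, day 3 minus day 1 was -0.208 points (exact permutation p = 1).

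Over all 6 libraries together, 101 of the 804 regions (12.6%, Wilson 95% interval 10.4 to 15%) had an IRF4 peak in at least 1, against 561 of 2722 stable regions (20.6%), with 18.8% over all 3526 promoter regions of day 1. The difference was -8.05 points (Newcombe interval -10.7 to -5.17). That interval covers counting error over regions only, since regions are not replicates, and it does not replace the test over libraries above. The part of PU.1 enrichment or of distance from the start in it was not tested. IRF4 was in 1 library only at 69 of the 101, and no region had it in all 6. Of the 141 regions in neither PU.1 day 3 library, 12 (8.51%, Wilson 95% interval 4.94 to 14.3%) had IRF4. Of the 657 in a single day 3 library 87 (13.2%, 10.9 to 16%) did, so the intervals overlapped. Median day 1 enrichment was 19.6-fold for the 141 and 23.9-fold for the 657.

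Slk and Atp6v0a1, a subunit of the vacuolar proton pump, had IRF4 in the most libraries, 3 of day 3 and 2 of day 1. At Atp6v0a1 (chr11:100869924-100870289, 621 bp upstream) PU.1 was not called in day 3 replicate 1 and had 194-fold in day 3 replicate 2, against 110-fold and 44.6-fold in day 1 replicates 1 and 2. Pkn3, a protein kinase N family member, Etv6, an Ets family repressor, and Fam100b had IRF4 in all 3 day 3 libraries and in 1 day 1 library. Asxl1, a chromatin regulator linked to Polycomb, had it in 1 day 3 library and in all 3 day 1 libraries. Il12rb1, a receptor chain for IL-12, and Snf8, a subunit of the ESCRT-II complex, had it in 2 libraries of each day. Trpv2, an ion channel, had it in 1 day 3 and 2 day 1 libraries, and Exoc2, a subunit of the exocyst, in 2 day 3 libraries and 1 day 1 library. All 10 were called in a single PU.1 day 3 library, which was replicate 1 at Fam100b and replicate 2 at the other 9.

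The 14 patterns were also compared between regions with and without IRF4, with no adjustment for their number, and 4 intervals lay clear of 0. The EICE was in 14.9% of the 101 regions with IRF4 and 6.12% of the 703 without (8.73 points, 2.74 to 17.1), as printed above for Slk, Atp6v0a1 and Pkn3. Of the other regions named for IRF4, Exoc2 held one, while Etv6, Il12rb1, Fam100b, Asxl1, Snf8 and Trpv2 held none. The part of PU.1 enrichment or of distance from the start in the differences of these 14 patterns was not tested. The AP-1 site was in 11.9% and 6.12% (5.76 points, 0.416 to 13.7). The purine-rich core was in 45.5% and 60.7% (-15.2 points, -25.2 to -4.83), and the PU.1 site in 11.9% and 20.3% (-8.46 points, -14.3 to -0.22); the AP-1 and PU.1 site intervals end close to 0. The other 10 intervals included 0, that of the ISRE (1.95 points, -2.04 to 8.78) among them. An EICE match was thus present at 15 regions with IRF4 and at 43 without it, Tomm5 among the second.

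**Figure D5:**
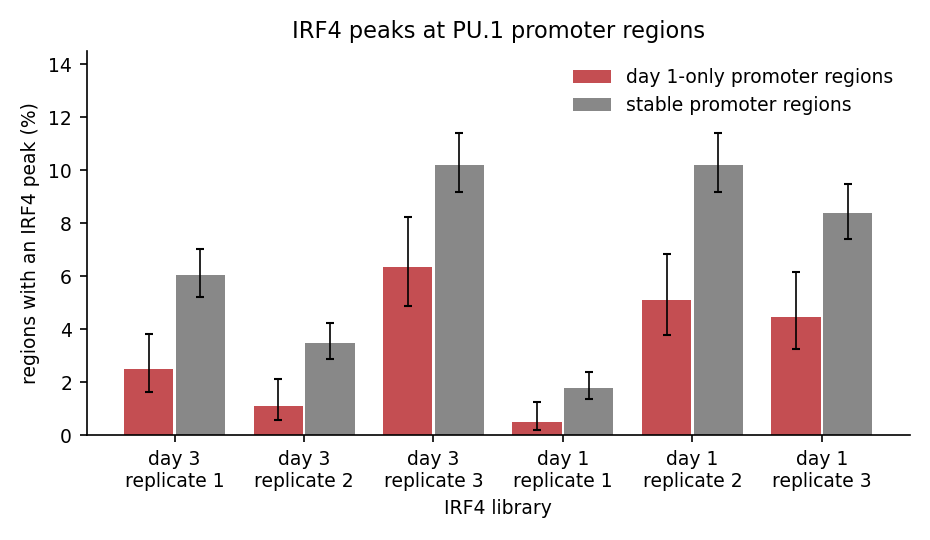
Share of day 1-only and stable PU.1 promoter regions with an IRF4 peak less than 200 bp away (vertical axis, with Wilson 95% intervals over regions) in each of the 6 IRF4 libraries. Day 1-only regions are lower in each library, with 6.34% and 10.2% in day 3 replicate 3.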

How the data were processed

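The authors aligned reads to mm9 and used QuEST to compute enrichment relative to input, per the series' design text and, for the build, the submitters' processing notes. For QuEST the version and cut-offs, and for the alignment the tool, were not given in the sources used here. The deposited value per peak is the authors' maximum fold enrichment, a linear ratio to input, used for description, ranking and filtering within a list. The lists hold no read counts, so depth is unknown. The day 3 PU.1 libraries had 34410 and 34061 peaks, and those of day 1 had 27321 and 38052. Repeated lines (5 in the day 3 and 7 in the day 1 group list) were counted once. Peak coordinates are the deposited ones, with no statement found on whether they start at 0 or 1; sequence windows count from 1.

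Peaks under 200 bp apart by position were matched. Starts were the 69978 distinct transcript starts of 22380 protein-coding genes in GENCODE M1 (mm9). The nearest gene names a region. Shares carry Wilson 95% intervals, differences over regions Newcombe intervals, and IRF4 shares per library exact permutation or sign-flip tests. The scripts (Python 3.11.15, pandas 2.3.3, numpy 2.4.6) were tested on simulated data. All 441 genes of the 18 lists matched, 4 of them by an older symbol. Named regions were the 10 highest by day 1 enrichment, the 10 highest in no day 3 library, the 10 with IRF4 in the most libraries, those at listed genes and those nearest the 200 bp limit; 2 of these regions are not reported here. Regions and lists were chosen with earlier results of these data known. Replicates follow the numbers in the sample descriptions; whether separate animals or cultures were used is not stated, and p-values therefore reflect the spread between these libraries alone, possibly technical. The input library, a pool of 2 B cell preparations, enters no comparison.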

Additional observations from a re-analysis of the deposited data

How the results depend on the processing

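The number of day 1-only promoter regions, 804, depends on the lists. It was 526 (429 of them in a single day 3 library) with starts within 500 bp and 1219 (996) within 2 kb. Keeping the stronger 50% of the day 1 list gave 169 (161), and of both lists 257 (161). It ranged from 422 to 2855 when a PU.1 library was left out (422 without day 3 replicate 1, 523 without day 3 replicate 2, 2855 without day 1 replicate 1 and 1269 without day 1 replicate 2), since all peaks of the remaining library then count. The IRF4 difference between days at these regions, -0.0415 points, changed sign to 0.318 with a partner distance of 100 bp, 0.317 with starts within 500 bp, 0.176 with gene starts only and 0.373 with the 825 top peaks of each library. Leaving out IRF4 libraries it ran from -1.55 to 1.06, and with the PU.1 day 3 list of a single library it was -0.632 (without replicate 1) and 0.446 (without replicate 2), both chosen after seeing the data; no p was under 0.2. The difference in IRF4 between day 1-only and stable regions kept its direction in every alternative run; leaving out IRF4 libraries gave -3.78 to -3.01 points with p = 0.0625, the smallest that exact sign flips of 5 libraries allow, the top peaks gave -1.15, and without a PU.1 day 3 library it was -4.05 and -2.74. The class I Ets difference moved to -1.06 points without PU.1 day 3 replicate 1 (-6.38 without replicate 2) and to -1.47 over 250 bp from a start, both chosen after seeing the data; the cause was not tested. The purine-rich core difference, 0.455 points, ran from -3.06 to 2.25 over its alternatives, all inside its own interval.

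With the replicate number as a block, the IRF4 difference between days stayed -0.0415 points (exact sign flips within numbers, p = 1). Same-numbered libraries deviated from their day's mean by -0.829 and -2.86 points (number 1), -2.2 and 1.74 (number 2) and 3.03 and 1.12 (number 3). The labels give no other link between same-numbered libraries, and 3 pairs are too few to show or exclude one.

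With 2 PU.1 libraries a day, no test of PU.1 between days at single regions was made. Depth is unknown, so a missing call cannot be told apart from a peak just under the authors' threshold.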
